A study of Mus musculus with 36 samples.

Results

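Translesion DNA polymerases copy damaged DNA that the replicative polymerases cannot pass. The Y family comprises Polk (polymerase kappa), Polh (polymerase eta, the main enzyme that bypasses ultraviolet-induced thymine dimers), Poli (polymerase iota) and Rev1, a deoxycytidyl transferase that also serves as a docking platform for the others. Polymerase zeta is a B-family enzyme that extends from mismatched or damaged ends, with Rev3l as its catalytic subunit and Mad2l2 (also called Rev7) as an accessory subunit that has further roles in the cell cycle and in the choice of double-strand break repair. All of them are recruited to stalled forks through PCNA, the sliding clamp, once PCNA has been ubiquitinated.

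These 6 genes were taken by symbol from 3 deposited count tables, which list 25239, 25229 and 48440 genes, and all 6 were found in each table. Polk is taken as selected on its measured P-body enrichment in naive and primed embryonic stem (ES) cells, so its values there are given as a description with no test. The other 5 were taken because they share its function.

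Processing bodies (P-bodies) are membraneless granules of the cytoplasm in which mRNAs are held apart from ribosomes, and the helicase DDX6 is needed to assemble them. Fluorescence-based particle sorting isolated them from cells that carried a lentiviral GFP-LSM14A construct, and an aliquot of the cytoplasmic fraction taken before sorting served as the comparison. The 20 libraries of the exon count table came from v6.5 ES cells in the naive state, the same line in the primed state after culture with activin A and bFGF, fibroblasts of mouse embryos (MEFs), and MEFs reprogrammed for 3 days while expressing either a control shRNA or one against Nudt21. The MEFs carried a doxycycline-inducible Oct4, Klf4, Sox2 and Myc cassette at Col1a1, the M2-rtTA transactivator at Rosa26 and a Pou5f1-EGFP reporter, in control groups too. A further 4 libraries held both fractions of naive Ago2 knockout (KO) ES cells, a line made from v6.5 cells with paired CRISPR guides. Another 12 held polysome-bound or total RNA of naive ES cells that carry GFP-LSM14A. In these cells both copies of Ddx6 carry an FKBP12(F36V) degron, a tag that leads to loss of the protein once dTAG-13 is added. Treated cells were harvested hours, not days, after dTAG-13 was added. The degron cells were established as single-cell clones, and the control cells carried the same tag and received no dTAG-13. There were 2 libraries in each group of P-bodies or cytoplasm, and 3 in each group of polysome-bound or total RNA. The labels do not say what a replicate is. The study's text describes the replicates of its sequencing experiments as biological, with separate plates for each in the polysome experiment. All p-values measure the spread between these libraries.

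Libraries held 6769727 to 31185799 assigned reads in the exon count table, 13308776 to 29362187 in the polysome table and 15624342 to 17486206 in the Ago2 KO table. Summed over 9 naive markers, the level was 2668 to 2748 CPM (counts scaled to the size of the library) in naive cytoplasm and 276.1 to 277.1 in primed cytoplasm. Summed over 8 fibroblast markers, it was 44140 to 48920 CPM in MEF cytoplasm, against 5729 to 5846 in day 3 control and 1756 to 1781 in day 3 Nudt21 knockdown cytoplasm. Nudt21 stood at 88.3 and 91.9 CPM in day 3 control cytoplasm and at 5.67 and 4.96 CPM after knockdown, and in P-bodies at 105 and 117 against 6.1 and 5.6. Ago2 had 45 to 73 reads in the KO libraries, and a count over the whole gene does not show the deleted part. The degron acts on protein, so Ddx6 mRNA, at 221 to 251 CPM in control total RNA and 195 to 209 CPM in degron total RNA, does not check it. Replicates stood farthest apart in 4 groups. Their chi-square divided by its degrees of freedom was 29.9 in naive cytoplasm, 52.1 in day 3 control P-bodies, and 44.6 and 334 in Ago2 KO P-bodies and cytoplasm, whereas it was 1.82 in naive P-bodies.

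The transcripts differ in length and base composition. By GENCODE M21 on GRCm38 (mm10), Polk is a protein-coding gene on chromosome 13, minus strand, from 96480690 to 96542579. Its longest protein-coding transcript, the kind used for each member here, has 4225 bases in 15 exons, 1480 of them in the 3′ UTR. Its GC content is 41.6%, lower than that of all but 15.8% of 21823 genes. Rev3l (chromosome 10, 39732118 to 39875211, plus strand) has 10713 bases and 42.4% GC, and Rev1 (chromosome 1, 38052786 to 38129801, minus strand) has 4262 bases and 46.8% GC. Polh (chromosome 17, 46171355 to 46202645, minus strand) has 3238 bases and 47.7% GC, and Poli has 2778 bases and 48.4% GC. Mad2l2 (chromosome 4, 148130384 to 148145699, plus strand) is the shortest, with 1535 bases, and has 57.9% GC, above 89.9% of genes. The median gene had 49.1% GC and 2685 bases. Of the 6168 exonic bases of Rev1, 1643 overlap exons of Eif5b on the opposite strand. The kit of the exon table libraries does not mark strand, so Rev1 values there are uncertain. The polysome and total RNA libraries were made with a directional kit, and the kit of the Ago2 KO libraries is not given in the sources used here. In Poli, 96 of 4036 exonic bases overlap Mir6357.

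Ago2 encodes AGO2, which belongs with AGO1, AGO3 and AGO4 to the Argonaute proteins that act together with microRNAs. The 3′ UTRs were therefore searched for matches to the seeds of 2 microRNA families that differ between ES cells and fibroblasts. The miR-290 to miR-295 family is abundant in ES cells, and let-7 is abundant in differentiated cells. Mature sequences are from RefSeq (GRCm38.p6), with the seed, bases 2 to 8, in capitals.
miR-291a-3p: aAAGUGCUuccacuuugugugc
miR-294-3p: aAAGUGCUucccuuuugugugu
miR-295-3p: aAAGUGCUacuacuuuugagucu
let-7a-5p: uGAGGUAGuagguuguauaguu
The first 3 share a seed, whose match on the mRNA strand is AGCACTT, and the let-7 match is CTACCTC. The AU-rich heptamer TATTTAT was searched on the same strand. Only that strand was searched, and no site found overlaps another. Of the 6 3′ UTRs, that of Polk alone held AGCACTT, at bases 580 to 586 after the stop codon (chr13:96481581-96481606, minus strand, GRCm38, with the match in capitals).
Polk site: acttatcttacatataAGCACTTggt
Among 3072 3′ UTRs of similar length, 16.2% held this match at least once. Polk alone also held TATTTAT, at 2 positions, which 34.5% of those 3′ UTRs held at least once.
Polk AU-rich element at base 56: atagtcaataTATTTATtcttcctcat
Polk AU-rich element at base 1347: ttatgtaaacTATTTATaaaattaaat
They lie at chr13:96482098-96482124 and chr13:96480807-96480833 of the minus strand. No member held CTACCTC, which 10% of the 3′ UTRs of the length of Polk did. These are matches of letters in a window, described without a test of binding.

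In naive ES cells, Polk mRNA stood far higher in sorted P-bodies than in the cytoplasm fraction. Its level was 883 and 890.2 CPM in replicates 1 and 2 of the P-bodies, against 16.9 and 75.9 CPM in those of the cytoplasm, which rest on 205 and 927 reads. The cytoplasm libraries thus differed by 4.5 times, but the groups did not overlap. The fitted log2 fold change was 4.51 ± 0.70 (SE), the rank 57 of 15630 genes, and it was 3.80 without cytoplasm replicate 1 and 5.96 without cytoplasm replicate 2.

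Of the other 5 members, 3 were higher in naive P-bodies, 1 was lower and 1 did not pass the test, where 22.6% of all genes tested were higher and 15.4% lower at an edgeR adjusted p under 0.05. Rev3l, the zeta catalytic subunit, was at 236 and 217 CPM in P-bodies and 43.4 and 58.6 CPM in cytoplasm, a log2 fold change of 2.40 ± 0.17 (SE; edgeR adjusted p = 5.73e-04). Rev1 was at 108 and 103.4 CPM against 46.4 and 55.0 CPM, or 1.31 ± 0.12 (adjusted p = 0.00123). Poli was at 62.5 and 67.4 CPM against 34.4 and 36.1 CPM, or 1.13 ± 0.11 (adjusted p = 0.00145). All 3 were higher in both P-body libraries than in either cytoplasm library, though how many of all genes separate in this way was not counted. Polh was at 11.2 and 11.4 CPM against 10.4 and 13.4 CPM, with overlapping groups and a log2 fold change of 0.17 ± 0.21 (adjusted p = 0.548). Mad2l2 went the other way, at 30.2 and 28.1 CPM in P-bodies against 64.1 and 68.0 CPM in cytoplasm, or −0.93 ± 0.12 (adjusted p = 0.00322). Its call was lost without P-body replicate 1 (adjusted p = 0.0521) or replicate 2 (adjusted p = 0.075), which leaves a single library in that group. The catalytic and the accessory subunit of polymerase zeta thus had opposite signs in the same libraries.

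**Figure D1:**
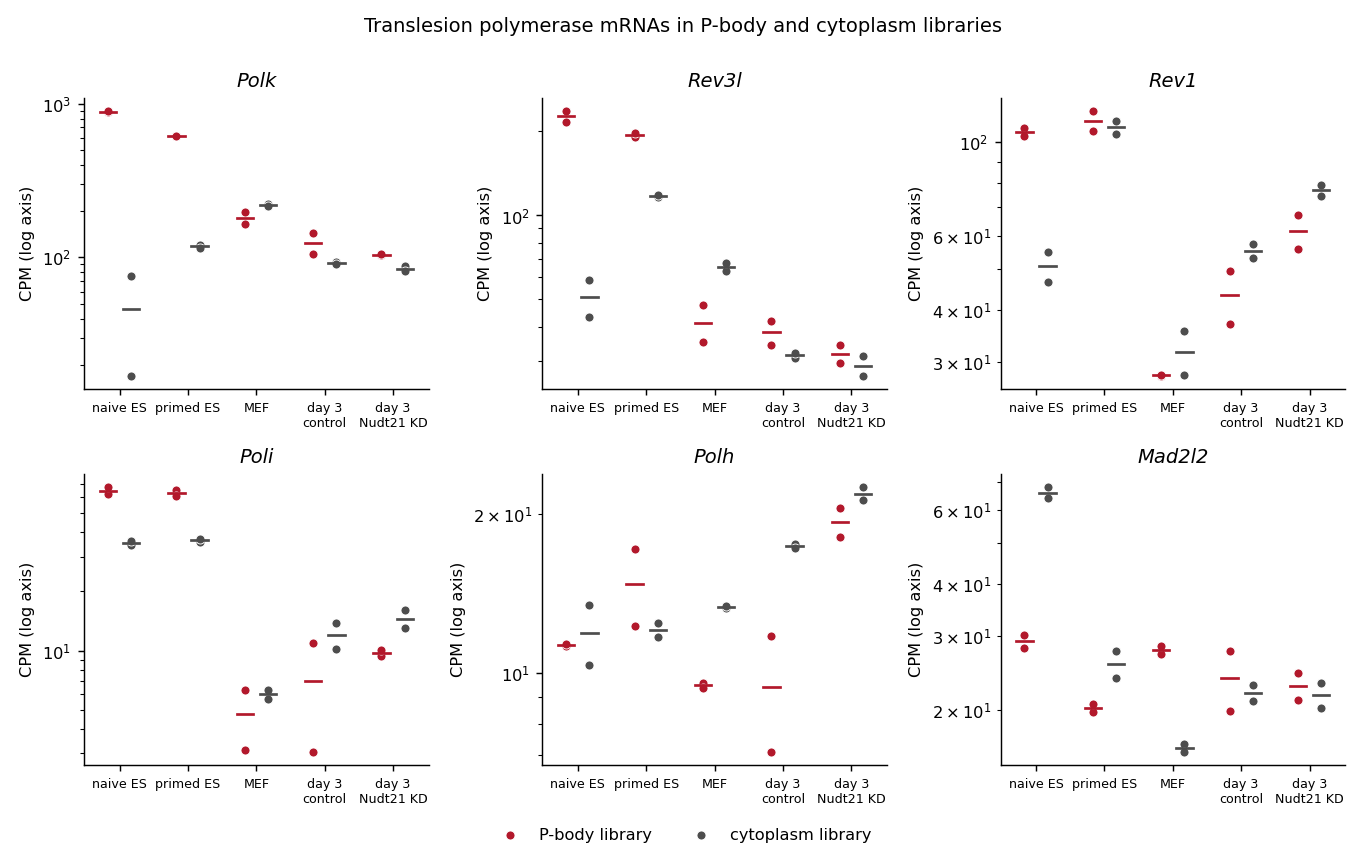
CPM of the 6 members (log axis, own scale in each panel) in P-body (red) and cytoplasm (grey) libraries of 5 kinds of cells, 1 point per library and a bar at the mean of 2. Polk, Rev3l, Rev1 and Poli sit higher in naive P-bodies than in naive cytoplasm and Mad2l2 sits lower, while the 2 naive cytoplasm points of Polk are far apart.

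In primed ES cells, Polk was at 617 and 619.6 CPM in P-bodies, against 120.2 and 116 CPM in cytoplasm, with close replicates. The log2 fold change was 2.43 ± 0.052 (SE), the rank 237 of 16177 genes. Among the other 5, 2 were higher and 0 lower (26.5% of all genes tested were higher and 24.2% lower). Poli was at 65.4 and 61.1 CPM against 35.5 and 36.9 CPM (0.85 ± 0.09, edgeR adjusted p = 6.21e-06), and Rev3l at 191 and 197 CPM against 116.5 and 118 CPM (0.77 ± 0.062, adjusted p = 5.10e-07). Rev1, at 118 and 106 CPM in P-bodies and 104.6 and 112 CPM in cytoplasm, overlapped between the fractions (0.09 ± 0.076, adjusted p = 0.338). Polh was at 17.2 and 12.3 CPM against 11.7 and 12.5 CPM and overlapped too (0.33 ± 0.18, adjusted p = 0.148). Without P-body replicate 2 it was at 0.54 (adjusted p = 0.0297). Mad2l2 was at 19.8 and 20.7 CPM in P-bodies and 23.8 and 27.7 CPM in cytoplasm, a log2 fold change of −0.31 ± 0.12 just outside the threshold (adjusted p = 0.052). Mad2l2 did pass without cytoplasm replicate 1 (−0.42, adjusted p = 0.0171), with DESeq2 size factors in edgeR (adjusted p = 0.0492) and with the filterByExpr filter (adjusted p = 0.041). Poli was not called when all groups of the table were fitted together (0.87 ± 0.35, adjusted p = 0.0744).

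In MEFs, Polk was no longer higher in P-bodies. It was at 164 and 197 CPM in P-bodies and 224 and 215 CPM in cytoplasm, and the log2 fold change of −0.22 ± 0.10 (SE) did not pass the test (edgeR adjusted p = 0.098). It did without P-body replicate 2 (−0.35, adjusted p = 0.00178). Of the 6 members, 1 was higher and 2 were lower in MEF P-bodies, where 26.6% of all genes tested were higher and 28.7% lower. Mad2l2 was higher, at 27.2 and 28.4 CPM against 16.6 and 15.9 CPM (0.83 ± 0.12, adjusted p = 3.50e-04), the reverse of its sign in naive cells. Rev3l was lower, at 35.1 and 47.6 CPM against 63.2 and 67.7 CPM (−0.60 ± 0.14, adjusted p = 0.00595), and so was Polh, at 9.59 and 9.37 CPM against 13.3 and 13.4 CPM (−0.43 ± 0.15, adjusted p = 0.0378). Both calls rest on the pair of cytoplasm libraries: without cytoplasm replicate 1 or 2, Rev3l was at −0.64 and −0.53 (adjusted p = 0.0658 and 0.106) and Polh at −0.42 and −0.40 (adjusted p = 0.209 and 0.222). Polh was also not called by DESeq2 (adjusted p = 0.121). Rev1, at 27.8 and 28.0 CPM against 28.0 and 35.6 CPM, and Poli, at 6.34 and 3.14 CPM against 6.27 and 5.70 CPM, did not pass (adjusted p = 0.449 and 0.471). Without P-body replicate 1, Poli was at −0.87 (adjusted p = 0.00737). MEF P-body replicate 2 held 98.2 CPM summed over 6 epithelial markers and 6.56 CPM over 5 blood markers, against 10.6 and 2.57 CPM in replicate 1 and at most 9.92 and 2.25 CPM in the cytoplasm. Without replicate 2, Rev3l was at −0.83 and Mad2l2 was still called.

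At day 3 of reprogramming, none of the 6 members passed the test in control cells with edgeR, and at an unadjusted p under 0.05 there were 2. Across all genes, 31 were higher (0.196%) and 71 lower (0.45%), with 3899 at an unadjusted p under 0.05, so few genes of any kind were called in this comparison. Polk was at 143 and 106 CPM in P-bodies, against 92.8 and 90.3 CPM in cytoplasm, higher in both P-body libraries (0.46 ± 0.17 SE, edgeR adjusted p = 0.171). Polh, at 11.7 and 7.09 CPM against 17.5 and 17.3 CPM, was lower in both (−0.87 ± 0.27, adjusted p = 0.134) and passed with DESeq2 (adjusted p = 0.0479). Poli was at 10.9 and 3.05 CPM in P-bodies against 13.7 and 10.2 CPM. The 2 P-body libraries thus differed most for Poli and Polh. Rev1 was at 49.5 and 37.1 CPM against 57.4 and 53.1 CPM, Rev3l at 41.9 and 34.3 CPM against 30.7 and 32.3 CPM, and Mad2l2 at 19.9 and 27.7 CPM against 21.03 and 22.97 CPM. Their adjusted p ran from 0.294 to 0.75. Without P-body replicate 1 or 2, Polk was at 0.22 and 0.66, and each of these fits leaves a single P-body library. Of the calls over all genes, 30.4% were higher with edgeR and 44.6% with DESeq2.

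NUDT21 is a subunit of the cleavage factor that sets where mRNA 3′ ends are cut. After its knockdown, Polk was at 103.7 and 105 CPM in P-bodies and 87.7 and 81.7 CPM in cytoplasm, higher in both P-body libraries but not called (0.27 ± 0.093 SE, edgeR adjusted p = 0.065). It was called without P-body replicate 1 (adjusted p = 0.0333) or replicate 2 (adjusted p = 0.0261). Of the 6 members, 2 were lower and 0 higher (12.8% and 9.04% of all genes tested). They were Poli, at 9.35 and 10.1 CPM against 13.02 and 16.01 CPM (−0.61 ± 0.17, adjusted p = 0.0252), and Rev1, at 55.6 and 67.3 CPM against 79.1 and 74.6 CPM (−0.36 ± 0.11, adjusted p = 0.046). Poli lost its call without either cytoplasm library (adjusted p = 0.0575 and 0.278), and Rev1 lost it without P-body replicate 1 (adjusted p = 0.105) or either cytoplasm library (adjusted p = 0.259 and 0.179). Both were outside the threshold in a fit of all groups (adjusted p = 0.339 and 0.189). Polh was at 20.5 and 18.1 CPM against 22.4 and 21.3 CPM, Rev3l at 34.4 and 29.5 CPM against 31.3 and 26.5 CPM, and Mad2l2 at 24.5 and 21.2 CPM against 20.2 and 23.3 CPM, and none passed. The difference in enrichment between knockdown and control was tested as an interaction, and 0 of 6 members passed with edgeR or DESeq2, also at an unadjusted p under 0.05. Their differences ran from −0.16 to 0.67 on the log2 scale, with SE of 0.20 to 0.60. Across all genes, 0% were higher and 0.0118% lower, with 819 at an unadjusted p under 0.05. Without day 3 control P-body replicate 1, whose pair stood apart, Polh was at 1.1 and Poli at 1.39, with a single library left in that group.

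In Ago2 KO cells, Polk was tested, although these are naive ES cells made from the same v6.5 line. Its enrichment in naive cells is taken to have chosen it, so this test is not independent of that choice. Polk was at 42.9 and 47.9 CPM in KO P-bodies, against 7.84 and 9.08 CPM in KO cytoplasm, with groups far apart. It was higher in P-bodies by 2.43 ± 0.25 (SE) on the log2 scale, a fold of 5.39 (edgeR adjusted p = 0.00211), the rank 333 of 16808 genes. The call held without any single library. Polk was the only member called, where 5.47% of all genes tested were higher and 1.05% lower, and 1 member was also the count by DESeq2. Rev3l, at 105 and 143 CPM in P-bodies and 52.9 and 119.8 CPM in cytoplasm, had overlapping groups (0.53 ± 0.38, adjusted p = 0.435). It passed with the replicate number as a block (0.63, adjusted p = 0.0429) and without cytoplasm replicate 2 (1.20, adjusted p = 0.00769). Poli was at 38.2 and 36 CPM against 27.5 and 26.6 CPM, higher in both P-body libraries (0.46 ± 0.23, adjusted p = 0.253). Rev1 was at 9.33 and 13.8 CPM against 11.6 and 14.7 CPM, Polh at 2.03 and 2.19 CPM against 2.63 and 3.78 CPM, and Mad2l2 at 42.0 and 37.4 CPM against 52.8 and 41.1 CPM, and none passed (adjusted p = 0.407 to 0.76). Higher genes made up 83.9% of all calls with edgeR and 70.2% with DESeq2. The wild-type controls of the Ago2 experiment were not analysed here and this table was counted in another way from the naive ES table, so the KO is not compared with wild-type cells.

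**Figure D2:**
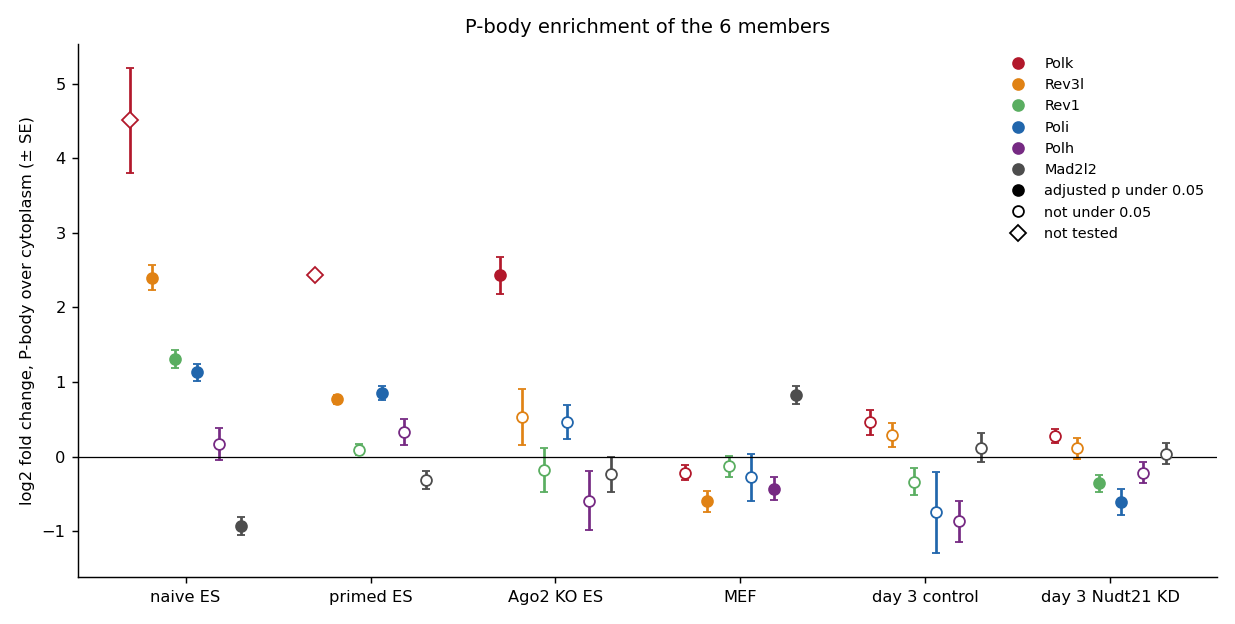
Log2 fold change of P-body over cytoplasm (± SE) for the 6 members in 6 kinds of cells with 2 libraries per fraction, where filled circles passed the edgeR test at an adjusted p under 0.05, open circles did not and open diamonds were not tested. Polk is the highest member in naive, primed and Ago2 KO ES cells (4.51, 2.43 and 2.43), and Mad2l2 changes from −0.93 in naive cells to 0.83 in MEFs.

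Differences in enrichment between kinds of cells were tested as interactions. For Polk, the primed minus naive difference was −1.93 ± 0.66 (SE) and the MEF minus naive difference −4.53 ± 0.68 on the log2 scale, given as a description. Without naive cytoplasm replicate 1 or 2 the first was −1.22 and −3.38 and the second −3.82 and −6.0. Among the other 5, 1 was higher and 2 were lower in primed than in naive cells (11.4% and 13.9% of all genes tested). Rev3l was lower by −1.49 ± 0.18 (edgeR adjusted p = 7.71e-04) and Rev1 by −1.07 ± 0.15 (adjusted p = 0.00144), whereas Mad2l2 was higher by 0.77 ± 0.17 (adjusted p = 0.0115). The call of Mad2l2 was lost when naive P-body replicate 2, primed P-body replicate 1 or 2, or primed cytoplasm replicate 1 was left out (4 of 8 libraries, adjusted p up to 0.097). In MEFs against naive cells, 1 was higher and 3 were lower (19.8% and 21.5% of all genes tested). Mad2l2 was higher by 1.96 ± 0.17 (adjusted p = 2.63e-05). Rev3l was lower by −2.81 ± 0.25 (adjusted p = 2.66e-05), Rev1 by −1.25 ± 0.20 (adjusted p = 8.64e-04) and Poli by −1.22 ± 0.35 (adjusted p = 0.0203). Poli lost its call without naive P-body replicate 1 or 2 (adjusted p = 0.067 and 0.088). Both contrasts share the naive libraries. The median of all genes was 0.17 in the MEF minus naive contrast.

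At day 3 against MEFs, enrichment was higher for 2 members and lower for 0 (9.59% and 5.13% of all genes tested). Polk enrichment was higher by 0.72 ± 0.21 (edgeR adjusted p = 0.0418) and that of Rev3l by 0.93 ± 0.23 (adjusted p = 0.0245). Both calls are fragile. Polk was called without day 3 control P-body replicate 2 but lost the call in the other 7 of 8 fits that left out a library (0.41 to 0.86, adjusted p up to 0.23), and in a fit of all groups (0.69 ± 0.48, adjusted p = 0.358). Rev3l lost its call in 5 of 8, namely without MEF P-body replicate 1, either MEF cytoplasm library or either day 3 control cytoplasm library (adjusted p up to 0.146). Without day 3 control P-body replicate 1, Polh (−0.89, adjusted p = 0.0178) and Poli (−1.72, adjusted p = 0.023) passed as lower. Without replicate 2, Mad2l2 did (−0.95, adjusted p = 0.00249), as it did in the fit of all groups (−0.72 ± 0.21, adjusted p = 0.0217).

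The cytoplasm levels against which enrichment is read also differed between cells. In such bulk levels, fewer cells with the mRNA and less mRNA per cell cannot be told apart. From naive to primed cytoplasm, 2 of the 5 tested members were higher and 1 was lower (21.6% and 22.1% of all genes tested). Rev3l rose from 43.4 and 58.6 to 116.5 and 118 CPM (1.23 ± 0.17 SE, edgeR adjusted p = 0.00294) and Rev1 from 46.4 and 55.0 to 104.6 and 112 CPM (1.12 ± 0.14, adjusted p = 0.00218). Mad2l2 fell from 64.1 and 68.0 to 23.8 and 27.7 CPM (−1.33 ± 0.15, adjusted p = 0.00163). The P-body levels of Rev1 in the 2 states overlapped, at 103.4 to 118 CPM. Polk differed by 1.38 ± 0.60 between primed and naive cytoplasm and by 2.35 ± 0.65 between MEF and naive cytoplasm, as a description. From naive to MEF cytoplasm, 3 of 5 were lower and 0 higher (36% and 35.9% of all genes tested). Poli fell to 6.27 and 5.70 CPM (−2.45 ± 0.16, adjusted p = 1.44e-04) and Mad2l2 to 16.6 and 15.9 CPM (−1.92 ± 0.13, adjusted p = 1.42e-04). Rev1 was lower by −0.57 ± 0.17 (adjusted p = 0.0306), a call lost without MEF cytoplasm replicate 1 or 2 (adjusted p = 0.231 and 0.0623). Without naive cytoplasm replicate 2, Polh (0.43, adjusted p = 0.0472) and Rev3l (0.66, adjusted p = 1.60e-04) passed as higher.

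From MEF to day 3 control cytoplasm, all 6 members passed the test, 4 as higher and 2 as lower, where 35.5% of all genes tested were higher and 33.7% lower. Polk fell from 224 and 215 to 92.8 and 90.3 CPM (−1.22 ± 0.062 SE, edgeR adjusted p = 5.84e-11), and Rev3l from 63.2 and 67.7 to 30.7 and 32.3 CPM (−1.02 ± 0.084, adjusted p = 2.29e-08). Poli rose from 6.27 and 5.70 to 13.7 and 10.2 CPM (1.04 ± 0.17, adjusted p = 5.65e-05) and Rev1 from 28.0 and 35.6 to 57.4 and 53.1 CPM (0.83 ± 0.11, adjusted p = 3.79e-06). Mad2l2 rose by 0.47 ± 0.11 (adjusted p = 0.00158) and Polh by 0.42 ± 0.12 (adjusted p = 0.00527). The calls held without any single library, though Polh was not called in a fit of all groups (adjusted p = 0.191). Polk and Rev3l, the 2 that fell, are also the 2 members with the lowest GC content, and a link with GC content was not tested. Fibroblast markers fell in the same cells, as given above, and their part in these differences was not tested. After Nudt21 knockdown at day 3, 2 members were higher in cytoplasm and 0 lower (24.6% and 25% of all genes tested), Rev1 by 0.47 ± 0.081 (adjusted p = 1.33e-04) and Polh by 0.32 ± 0.11 (adjusted p = 0.0283). Polh lost its call with DESeq2 (adjusted p = 0.0662) and when day 3 control cytoplasm replicate 1 or 2 or knockdown cytoplasm replicate 1 was left out (adjusted p = 0.069 to 0.118). Poli passed as higher without replicate 1 of the control (0.50, adjusted p = 0.0245) or of the knockdown cytoplasm (0.41, adjusted p = 0.0374).

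To compare levels between genes, CPM was divided by the length of the longest protein-coding transcript with a complete coding end. The longest transcript of any type has 3504 bases for Poli and 10789 for Rev3l, so their values would be lower on that length. On this scale, Polk was the most abundant member in every P-body group of the exon table, at 209.9 ± 1.13 CPM per kilobase (SD, n = 2) in naive and 146 ± 0.495 in primed P-bodies. Rev1 came next there, at 24.8 ± 0.764 and 26.4 ± 2.01 CPM per kilobase. In naive cytoplasm Mad2l2 led, at 43.0 ± 1.82 CPM per kilobase, followed by Poli (12.7 ± 0.424), Rev1 (11.9 ± 1.41), Polk (10.98 ± 9.88), Rev3l (4.76 ± 1.005) and Polh (3.67 ± 0.666), and from Poli downwards each overlapped its neighbour. In MEF cytoplasm Polk led again, at 51.9 ± 1.42 CPM per kilobase, with Mad2l2 next at 10.6 ± 0.354 and Poli last at 2.16 ± 0.145, and no neighbours overlapped. In the total RNA of control degron-line ES cells, Mad2l2 led at 24.7 ± 2.17 CPM per kilobase (n = 3), and Polk came next to last, at 7.10 ± 1.05, overlapping with Rev3l at 5.57 ± 0.892. With all exons of a gene merged as its length, Mad2l2 still led in naive cytoplasm, at 25.2 CPM per kilobase, Polh was at 1.999, and Polk (8.35) stood just above Rev1 (8.22). On that length Polk (5.40) also stood above Polh (4.804) in control total RNA, so these orders depend on the length used.

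RNA on polysomes was set against total RNA of the same lysates to ask how much of each mRNA is on ribosomes. Polk was at 32.7, 30.4 and 32.4 CPM on polysomes and at 32.9, 32.3 and 24.9 CPM in total RNA of control cells, with overlapping groups and a log2 fold change of 0.07 ± 0.094 (SE, edgeR adjusted p = 0.607). Of the 6 members, 1 was higher and 1 lower, where 18.8% of all genes tested were higher and 24.1% lower. Mad2l2 was higher on polysomes, at 47.1, 48.8 and 44.8 CPM against 36.1, 35.7 and 41.7 CPM (0.31 ± 0.076, adjusted p = 0.00379). Polh was lower, at 24.0, 24.4 and 24.2 CPM against 28.2, 29.7 and 27.9 CPM (−0.25 ± 0.072, adjusted p = 0.0103), a call lost without total RNA replicate 2 (adjusted p = 0.0601). Rev3l was at 47.8, 52.1 and 53.5 CPM against 64.9, 65.4 and 48.6 CPM (−0.24 ± 0.096, adjusted p = 0.0605). Its total RNA replicate 3 stood below the other two, and without it Rev3l was at −0.36 (adjusted p = 1.86e-04). With no filter it also passed (adjusted p = 0.0134). Rev1 was at 92.8, 89.7 and 94.6 CPM against 94.1, 94.3 and 74.6 CPM, and Poli at 48.5, 49.8 and 45.2 CPM against 45.9, 46.1 and 43.6 CPM, and neither passed (adjusted p = 0.575 and 0.413).

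With DDX6 degraded, Polk was at 27.1, 28.2 and 27.1 CPM on polysomes and at 29, 22.6 and 25.98 CPM in total RNA (0.07 ± 0.072 SE, edgeR adjusted p = 0.438). Again 1 member was higher and 1 lower (24% and 26.8% of all genes tested). They were Mad2l2, at 52.4, 54.3 and 49.5 CPM against 46.3, 48.0 and 43.5 CPM (0.16 ± 0.058, adjusted p = 0.0258), and Polh, at 22.3, 24.0 and 25.3 CPM against 29.4, 27.2 and 27.0 CPM (−0.25 ± 0.064, adjusted p = 0.00235). Mad2l2 lost its call in 4 of 6 fits, those without polysome replicate 1 or 2 or total RNA replicate 1 or 3 (adjusted p up to 0.142). Rev1, at 76.3, 83.5 and 81.0 CPM against 71.3, 68.6 and 77.5 CPM, was just outside the threshold (0.12 ± 0.053, adjusted p = 0.0642). It passed with other filters on low counts (adjusted p = 0.0455 and 0.0466), with a replicate block (adjusted p = 0.0395) and without polysome replicate 1 (adjusted p = 0.0249) or total RNA replicate 3 (adjusted p = 0.0133). Poli was at 48.4, 50.6 and 46.3 CPM against 46.5, 41.6 and 45.6 CPM and Rev3l at 46.6, 55.7 and 53.2 CPM against 49.3, 45.1 and 56.3 CPM, and neither passed.

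**Figure D3:**
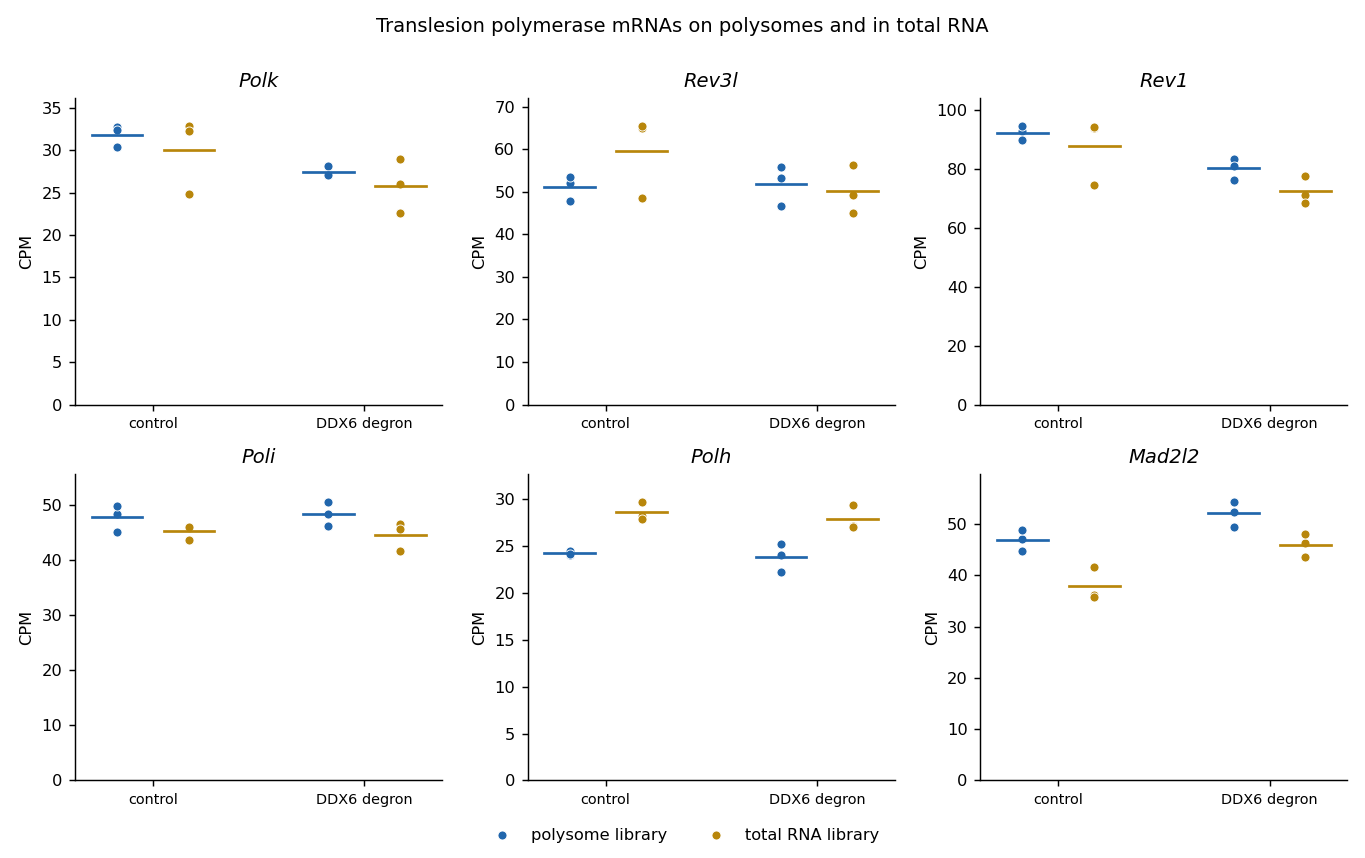
CPM of the 6 members in polysome (blue) and total RNA (gold) libraries of control and DDX6 degron ES cells, 1 point per library, 3 per group, with a bar at the mean and axes from 0. Polysome and total RNA points of Polk overlap in both conditions, those of Mad2l2 and Polh do not.

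The change in ribosome occupancy between degron and control cells was tested as an interaction. For Polk it was 0.0023 ± 0.13 (SE) on the log2 scale, and over the 6 members it ran from −0.15 to 0.25. None passed with edgeR or DESeq2, also at an unadjusted p under 0.05 (0% of all genes were called in either direction with edgeR, 4 genes with DESeq2, and 844 at an unadjusted p under 0.05). In total RNA, 0 of 6 members differed between degron and control with edgeR, where 1.24% of all genes tested were higher and 2.07% lower. At an unadjusted p under 0.05 there were 3 members, beside 2981 of 15380 genes. Beside 832 of 15380 genes, DESeq2 called 2 members. These were Mad2l2, at 0.29 ± 0.078 (edgeR adjusted p = 0.0666; DESeq2 adjusted p = 0.0273), and Rev1, at −0.27 ± 0.085 (edgeR adjusted p = 0.1003; DESeq2 adjusted p = 0.0344). Polk was at −0.22 ± 0.11 (adjusted p = 0.281). Without control total RNA replicate 3, 4 members passed, though the share of all genes in that fit is not given here. They were Polk (−0.34, edgeR adjusted p = 0.00731), Rev1 (−0.37), Rev3l (−0.37) and Mad2l2 (0.36). Control total RNA replicate 3 pulled in 1 direction for Polk, Rev1 and Rev3l, all of which were lower in it than in the other control total RNA libraries.

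The wider pathway was described by 3 lists. Of 17 regulators of translesion synthesis and PCNA modification, 12 were higher and 1 was lower in naive P-bodies, where 22.6% of all genes tested were higher and 15.4% lower (median 0.85 on the log2 scale, against −0.06 for all genes). Ube2v2, a partner of the ubiquitin-conjugating enzyme Ube2n in PCNA polyubiquitination, was at 2.46 ± 0.15 (SE, edgeR adjusted p = 4.57e-04) and Atad5, which unloads PCNA, at 2.27 ± 0.11 (adjusted p = 4.14e-04). Ube2a, one of the RAD6 enzymes that monoubiquitinate PCNA with Rad18, was the one lower gene (−1.1 ± 0.12, adjusted p = 0.00201). In primed P-bodies 9 were higher and 3 lower, against 26.5% and 24.2% of all genes (median 0.20), led by Ube2v2 (0.72) and Zranb3 (0.61) upwards and Wrnip1 (−0.69) and Shprh (−0.42) downwards. In MEFs 7 were higher and 6 lower, against 26.6% and 28.7% of all genes (median 0.05), with Ube2v2 (1.27) and Ube2a (0.84) higher and Wrnip1 (−1.11) and Zranb3 (−0.88) lower. Of the 16 measured in Ago2 KO cells, 1 was higher and 0 lower, near the 5.47% and 1.05% of all genes. On control polysomes 6 were higher and 8 lower, against 18.8% and 24.1% of all genes, with Ube2v2 (0.58) and Ube2n (0.53) higher and the PCNA ubiquitin ligases Hltf (−1.11) and Shprh (−0.98) lower. Ube2v2 was thus higher in P-bodies of all 3 of these cell types and also on polysomes.

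Of 12 replicative polymerase and primase genes, 4 were higher and 1 lower in naive P-bodies (median 0.04), 6 and 5 in primed (median 0.18) and 5 and 3 in MEF P-bodies (median 0.22). For all genes tested, the shares higher and lower were 22.6% and 15.4% in naive, 26.5% and 24.2% in primed and 26.6% and 28.7% in MEF P-bodies. In naive cells the polymerase delta subunit Pold3 was at 1.04 ± 0.15 (edgeR adjusted p = 0.00429), Prim2 at 0.78 and Pold2 at −0.49. In primed cells the primase Prim1 was at 0.85 and Pold4 at 0.74, and the catalytic subunits Pole and Pola1 at −0.68 and −0.49. MEFs had Pold4 at 1.1, Prim1 at 1.08, Pole at −1.88 and Pold3 at −0.49. On control polysomes 2 were higher (Pole4 at 0.49 and Pole3 at 0.34) and 7 lower (18.8% and 24.1% of all genes), with Pold1 at −1.92 and Pola1 at −1.54. Of 7 measured other specialised and repair polymerases, 1 was higher and 2 were lower in naive P-bodies (Poln at 1.64, the mitochondrial Polg at −0.68 and the base excision repair enzyme Polb at −0.65). In primed P-bodies Polb was at 0.34, Polg at −0.92 and Poll at −0.32. MEF P-bodies had Polg2 at 1.66 and Polb at 1.11 higher, and the end-joining enzyme Polq at −1.52 and Polg at −0.48 lower. On polysomes, Polg2 (0.26) and Polb (0.22) were higher and Polg (−0.67) was lower. All of these passed the edgeR test.

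The pattern of Polk over the 20 libraries of the exon table was compared with that of 11651 other genes with a mean of at least 5 CPM. The most similar by Pearson correlation of log2 CPM were Cnot6, a deadenylase of the CCR4-NOT complex (0.977), Zfp955b (0.974), Zmym5 (0.971), Strn3 (0.965) and Arid4b (0.964). Cnot6, for example, was at 882 and 933 CPM in naive P-bodies and 41.8 and 83.9 CPM in naive cytoplasm, and the same cytoplasm replicate was the lower of the pair for it as for Polk. By Spearman correlation, Rps6kb1 came first and 1 of these 5 stayed among the leading 5. The points share libraries and depth, and the correlations are given as a description. Among the members, Rev3l came nearest to Polk (0.764), followed by Rev1 (0.366) and Poli (0.345), while Polh (−0.137) and Mad2l2 (−0.412) had negative values.

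**Figure D4:**
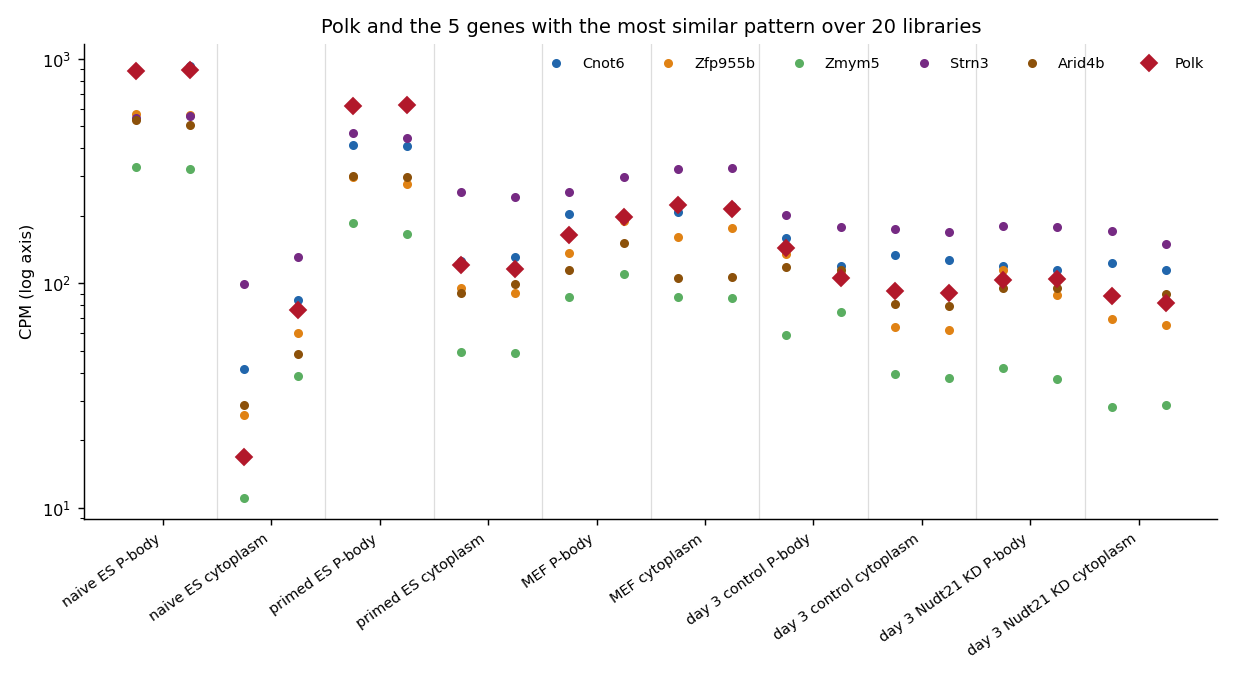
CPM (log axis) of Polk (red diamonds) and of the 5 genes with the most similar pattern (circles) in the 20 libraries of the exon table, replicates side by side. All 6 genes are highest in naive P-bodies and lowest in naive cytoplasm replicate 1, where Polk is at 16.9 CPM.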

How the data were processed

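RNA-seq counts of 36 libraries were used. For the 20 P-body and cytoplasm libraries (SMART-Seq v4 and Nextera XT), the authors aligned reads to mm10 with HISAT2 and deposited estimated counts per refGene gene from featureCounts, some of them not whole numbers. The expected counts deposited for the other 2 tables came from salmon. Groups and replicate numbers came from the sample titles, and 0 per-sample columns were left unused. The authors' own DESeq2 tables of fold changes and p-values were not used.

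Counts were rounded, genes with a sum under 10 in the fitted libraries were dropped, and edgeR (version 4.0.16, in R 4.3.3) was run with TMM scaling and its quasi-likelihood test, two-sided. Calls had a Benjamini-Hochberg adjusted p under 0.05 over all genes tested. All 6 members passed the filter in each comparison. CPM uses TMM over the whole table. Log2 CPM for correlations used a prior count of 2. The tests were tried on simulated data. Members, lists and alternatives were chosen with earlier results of these data known. Named genes are the 6 members, the targeted genes, the 2 called genes per list and direction with the largest fold change, and the 5 most similar to Polk. Alternatives were DESeq2 (version 1.42.0), its size factors in edgeR, other filters, all groups in a single fit, a replicate block and leaving out each library. Polysome and total RNA came from shared lysates and the cytoplasm was an aliquot taken before sorting, but no source used here says that the replicate numbers mark these pairs, so the fits carry no block and the blocked fit is an alternative. Feature lengths and coordinates are from GENCODE M21. Plots used matplotlib 3.10.9.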

Additional observations from a re-analysis of the deposited data

Results flagged for a closer look

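Enrichment in P-bodies differed between kinds of cells, by a test of the difference itself (edgeR interaction), in 9 cases. Primed minus naive differences were −1.49 for Rev3l, −1.07 for Rev1 and 0.77 for Mad2l2 on the log2 scale. In that contrast 11.4% of all genes tested were higher and 13.9% lower. MEF minus naive differences were −2.81 for Rev3l, −1.25 for Rev1, −1.22 for Poli and 1.96 for Mad2l2, beside 19.8% and 21.5% of all genes. The call of Mad2l2 in the first contrast and that of Poli in the second were lost in some fits that left out a library. For day 3 control minus MEF, 9.59% of all genes were higher and 5.13% lower. Day 3 control minus MEF differences were 0.93 for Rev3l and 0.72 for Polk, and both of these lost their call in most fits that left out a library (5 and 7 of 8).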

How the results depend on the processing

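Leaving out each library in turn gave these ranges of called members: 1 to 4 in MEF P-bodies, 0 to 5 in day 3 control P-bodies, 0 to 3 after Nudt21 knockdown, 1 to 2 in Ago2 KO P-bodies, 0 to 3 for day 3 minus MEF enrichment, 0 to 2 for the knockdown difference in enrichment, 2 to 5 for MEF minus naive cytoplasm, 1 to 2 for the knockdown in cytoplasm, 1 to 3 for control polysomes, 1 to 2 for degron polysomes and 0 to 4 for degron total RNA. The lone library left in a group is assumed to vary like the other groups. The shares of all genes called in these fits are not given here, so these counts have no background beside them. With all groups in a single fit the count was 1 in primed P-bodies, 1 in day 3 control P-bodies, 0 after Nudt21 knockdown, 1 for the knockdown in cytoplasm, 1 for degron polysomes and 2 for degron total RNA. DESeq2 gave 1, 1 and 2 for day 3 control P-bodies, the knockdown in cytoplasm and degron total RNA, and no filter gave 1 and 2 for the first and the last. By Spearman correlation 1 of the 5 genes most like Polk was shared. The cause of these changes was not tested.

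Signs changed for values near 0. The knockdown difference in enrichment of Rev1 was −0.01 with DESeq2 and with its size factors, −0.0012 with filterByExpr and −0.0008 with no filter. The occupancy change was −0.01 for Polk with DESeq2 and −0.0042 with its size factors, and for Polh 0.01 with filterByExpr and 0.02 with no filter. When a library was left out, log2 values changed sign within these ranges: in MEF P-bodies −0.87 to 0.15 for Poli and −0.28 to 0.08 for Rev1, in day 3 control P-bodies −0.13 to 0.34 for Mad2l2, after knockdown −0.01 to 0.22 for Rev3l and −0.07 to 0.15 for Mad2l2, and in Ago2 KO P-bodies −0.49 to 0.08 for Rev1 and −0.06 to 1.2 for Rev3l. For differences in enrichment they were −0.08 to 0.46 for Polh (primed minus naive), −1.72 to 0.18 for Poli (day 3 minus MEF) and, for the knockdown, −0.38 to 0.08 for Polk, −0.47 to 1.39 for Poli, −0.19 to 0.25 for Rev1, −0.3 to 0.01 for Rev3l and −0.27 to 0.19 for Mad2l2. In cytoplasm they were −0.11 to 0.25 for Polh (primed minus naive) and −0.13 to 0.08 for Mad2l2 (knockdown). On control polysomes they were −0.05 to 0.14 for Polk and −0.04 to 0.12 for Rev1, and on degron polysomes −0.01 to 0.15 for Polk and −0.05 to 0.11 for Rev3l. For the occupancy change they were −0.08 to 0.12 for Polk, −0.04 to 0.04 for Polh, −0.02 to 0.05 for Poli and −0.0038 to 0.16 for Rev1, and in degron total RNA −0.04 to 0.02 for Poli.

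With the replicate number as a block, 2 members were called in Ago2 KO P-bodies, Rev3l was called in MEF minus naive cytoplasm (0.48, edgeR adjusted p = 0.0291) and Rev1 on degron polysomes, and no other call of a member changed. Same-numbered libraries correlated in their deviations at −0.064 to 0.2 in the exon table, 0.542 in Ago2 KO, and −0.002 to 0.328 in the polysome table, and no label says what the numbers share.

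Counts over all genes moved by over 1.5 times in 8 comparisons. They went from 102 to 2105 (DESeq2), 202 (filterByExpr), 1940 (no filter), 3308 (all groups) and 802 (block) in day 3 control P-bodies, and from 1095 to 1731 (DESeq2), 716 (size factors), 2643 (no filter) and 4178 (block) in Ago2 KO. They went from 8209 to 5128 in primed P-bodies, from 3501 to 2100 after knockdown and from 7934 to 4877 for the knockdown in cytoplasm with all groups. The knockdown difference went from 2 to 26 (DESeq2), 62 (no filter) and 1 (block), the occupancy change from 0 to 4, 16 and 6, and degron total RNA from 509 to 832, 863 and 82, and to 1138 with all groups. Reads of low genes limit the precision: Polh in Ago2 KO rests on 32 to 57 reads per library.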
